A study of Mus musculus with 3 samples.

Results

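The promoters of long intergenic noncoding RNA (lincRNA) genes were examined for 5-methylcytosine (5mC), 5-hydroxymethylcytosine (5hmC) and the 2 further oxidized bases 5-formylcytosine (5fC) and 5-carboxylcytosine (5caC). Members were the autosomal genes that GENCODE M1, the annotation of the NCBIM37 (mm9) mouse assembly, types as lincRNA and whose start lay more than 5 kb from every protein-coding transcript start. Of 1232 autosomal lincRNA genes, 502 met this rule and 730 did not. The members closest to the limit inside it were 4931431C16Rik, Gm17554 and 6330403N20Rik, at 5057, 5066 and 5111 bp, and the closest outside it were Gm17591, Gm12898 and Gm17638, at 4964, 4957 and 4952 bp. The label intergenic did not hold for every member, because 164 of the 502 started inside the span of a protein-coding gene, away from its starts, and 338 started outside such spans.

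All data came from gDNA of E14 mESCs, a widely used mouse embryonic stem cell line grown on gelatin in serum medium with LIF and the 2 inhibitors PD0325901 (of MEK) and CHIR99021 (of GSK3). The gDNA went into 1 TAPSβ library, in which 5hmC is blocked so that 5mC is read as T, 1 CAPS library, in which 5hmC is read as T, and 1 PS library, in which 5fC and 5caC are read as T. TAPSβ and CAPS also read 5fC and 5caC as T. Fragments were selected at a shorter length for CAPS than for the other methods. There were no replicates and no second condition. All intervals below are exact (Clopper-Pearson) 95% binomial intervals, and those of levels cover counting error only. Intervals of shares of promoters or cytosines treat these as independent units, are a description and are no test between genes. Levels were not corrected for incomplete or false conversion.

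The libraries held 511365019 (TAPSβ), 377288829 (CAPS) and 383591531 (PS) base calls at CpG cytosines, with modified shares of 57.5%, 3.14% and 0.246%. A promoter was the window from 500 bp before to 500 bp after the gene start. The 502 promoters held 26089 CpG cytosines, and a promoter had a median of 466 TAPSβ, 319 CAPS and 340 PS reads summed over its cytosines. In 485 members the promoter had at least 20 TAPSβ reads, the minimum for a level of a single gene, and 17 fell short of it, including 1 with no CpG in the window.

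LincRNAs are long transcripts without a protein product, made largely by RNA polymerase II and often spliced and polyadenylated. Their promoters range from CpG islands, where CpGs are dense and methylation is usually absent in stem cells, to CpG-poor sequence that is usually methylated. 5hmC is made from 5mC by TET enzymes and is often found in stem cells at the edges of unmethylated regions and at enhancers, whereas 5fC and 5caC are further oxidation products that are excised and replaced by unmodified cytosine.

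To show how different these promoters are, the sequence of the transcript strand is given for 3 members from 250 bases before to 50 bases after the start, with each CpG in capitals. They are the low-methylated promoter with the most CpGs, the promoter with the highest TAPSβ level among those with at least 20 CpGs, and the promoter with the highest CAPS level among those without a variant-like cytosine (defined further on), in each case among members with at least 100 reads in every library. All are on the minus strand of NCBIM37, at chr3:121996418-121996717, chr8:48531667-48531966 and chr7:57112921-57113220.
Gm17494: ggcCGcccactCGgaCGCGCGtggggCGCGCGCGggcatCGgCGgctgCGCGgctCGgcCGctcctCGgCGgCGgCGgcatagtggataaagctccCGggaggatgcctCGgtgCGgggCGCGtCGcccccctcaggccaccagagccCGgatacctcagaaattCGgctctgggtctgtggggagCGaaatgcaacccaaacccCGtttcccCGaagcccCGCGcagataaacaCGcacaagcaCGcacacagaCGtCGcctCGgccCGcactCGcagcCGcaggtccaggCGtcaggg
4930448N21Rik: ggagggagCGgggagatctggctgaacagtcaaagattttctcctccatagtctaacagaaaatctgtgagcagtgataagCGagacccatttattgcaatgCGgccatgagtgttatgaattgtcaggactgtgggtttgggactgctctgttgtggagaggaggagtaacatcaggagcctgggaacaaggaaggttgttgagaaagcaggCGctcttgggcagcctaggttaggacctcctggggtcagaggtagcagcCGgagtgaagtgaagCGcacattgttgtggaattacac
Gm17464: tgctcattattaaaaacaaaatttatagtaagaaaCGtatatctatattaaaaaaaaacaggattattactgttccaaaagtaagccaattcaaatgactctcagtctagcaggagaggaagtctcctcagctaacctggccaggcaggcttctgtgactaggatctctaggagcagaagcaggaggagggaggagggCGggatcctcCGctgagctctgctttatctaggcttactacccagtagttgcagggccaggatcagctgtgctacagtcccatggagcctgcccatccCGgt

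The 300 bases of Gm17494 held 41 CpGs and were 71.3% G or C, and 1 of 993 TAPSβ reads was modified there (0.101%), next to 7 of 552 CAPS reads (1.27%) and 0 of 600 PS reads. In 4930448N21Rik 6 CpGs carried 114 modified of 141 TAPSβ reads (80.9%), 9 modified of 121 CAPS reads (7.44%) and 0 of 126 PS reads. The 4 CpGs of Gm17464 carried 26 modified of 63 TAPSβ reads (41.3%) and 3 modified of 46 CAPS reads (6.52%) with an interval of 1.37 to 17.9%, which shows how few reads a CpG-poor promoter offers. No TAPSβ or CAPS read covered 3 of its 8 cytosines. Within 4930448N21Rik the cytosines 13 and 12 bp after the start, on opposite strands of the same CpG, held 3 of 10 and 2 of 9 modified CAPS reads. Of the 12 cytosines 7 held none. Whether this differs from an even level with so few reads was not tested.

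In pooled reads, the promoters of the 502 members were low in 5mC and 5hmC relative to their surroundings. Pooled over all reads, the TAPSβ level was 14.2% (14.1 to 14.3%) within 500 bp of the start, 48.0% (47.9 to 48.1%) in the flanks 2 to 5 kb away on both sides and 53.1% (53.1 to 53.2%) in the gene body from 500 bp after the start to the gene end. The CAPS level was 2.55% (2.49 to 2.62%) in promoters, 4.103% (4.05 to 4.15%) in flanks and 3.67% (3.64 to 3.69%) in bodies. For PS the 3 levels were 0.276% (0.256 to 0.298%), 0.221% (0.210 to 0.232%) and 0.236% (0.230 to 0.242%), highest in promoters in pooled reads. These PS levels were near the false conversion rate of PS in unmodified spike-in DNA, and were not read as 5fC or 5caC. Pooling lets CpG-rich promoters count most. When each gene counted equally the mean promoter TAPSβ level was 32.0% and the mean CAPS level 3.48%.

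Because methylation falls as CpG number rises, protein-coding starts were matched on the number of CpGs in the window: for each member the coding genes with the same number, or the nearest numbers that gave at least 10 genes, were pooled. Against these, member promoters had a lower TAPSβ level, 14.2% against 17.5%, and the difference was negative on 16 of the 19 autosomes (range -16.0 to 3.44 percentage points). The order was not the same at every CpG number: by class, and without matching inside a class, members had 54.6, 42.4 and 12.5% with 0 to 9, 10 to 19 and 20 to 39 CpGs and coding genes 63.3, 51.4 and 16.6%, but with 40 or more CpGs members had 2.45% (2.38 to 2.52%) and coding genes 1.21%. CAPS in that last class was 1.38% and 0.933%. Over all members the CAPS level was close, 2.55% against 2.47%, with 9 autosomes higher and 10 lower, and so was the PS level, 0.276% against 0.277%, with 10 higher and 9 lower. Without matching the sign of the TAPSβ difference turned, and members were 8.50 percentage points higher than all coding genes. The median number of CpGs was 17.5 in member promoters and 42 in the 21418 coding promoters.

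**Figure D1:**
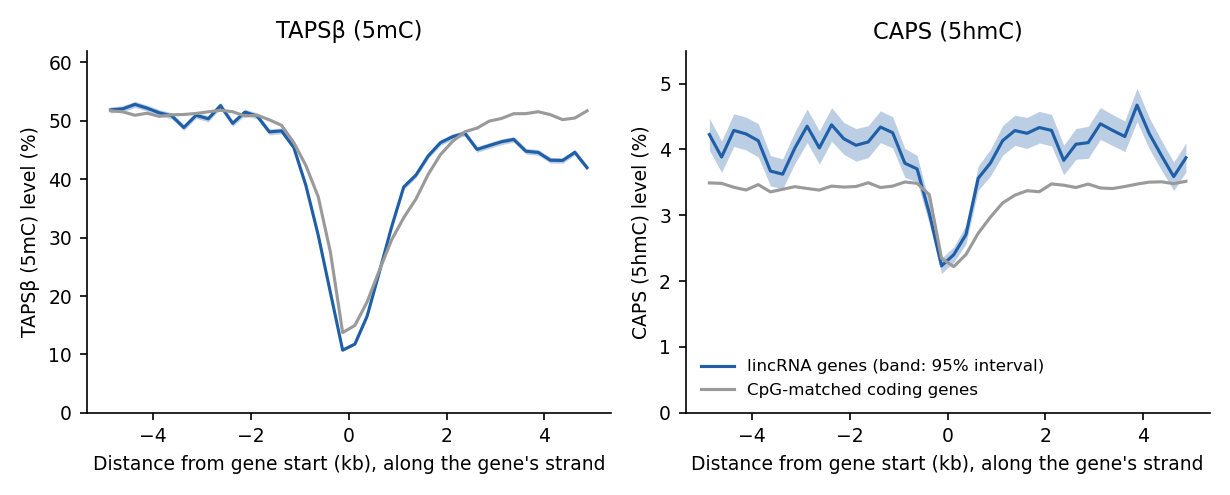
TAPSβ (5mC) level, left, and CAPS (5hmC) level, right, in percent, pooled in 250-bp steps by distance from the gene start along the gene's strand, for the 502 lincRNA genes (blue, band 95% interval) and coding genes matched on promoter CpG number (grey). TAPSβ fell to 10.7% in the step before the start in lincRNA genes and 13.7% in coding genes. CAPS of lincRNA genes lay under that of coding genes in the 2 steps from 500 bp before to the start and above it in all other steps.

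The profile by distance placed the lowest levels of lincRNA genes in the 250 bp before the start, at 10.7% TAPSβ (13.7% in matched coding genes) and 2.23% CAPS (2.35%). CAPS of matched coding genes was lowest 0 to 249 bp after the start, at 2.22%. By 500 to 749 bp after the start, TAPSβ had risen to 24.1% in lincRNA genes and 24.4% in matched coding genes. CAPS had by then risen to 3.56% in lincRNA genes and 2.73% in matched coding genes. The profile was not symmetric at a distance: 4750 to 4999 bp after the start TAPSβ was 42.0% in lincRNA genes and 51.7% in matched coding genes, while 4751 to 5000 bp before it the values were 51.9% and 51.7%.

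Single promoters were mostly either low or high in 5mC. Of the 485 with enough reads, 243 (50.1%) had a TAPSβ level under 20%, 69 (14.2%) from 20 to below 50%, and 173 (35.7%) at least 50%. Among all coding promoters the shares were 62.7%, 7.98% and 29.3%, and among coding promoters weighted to the CpG numbers of the members they were 39.7%, 14.2% and 46.1%. Levels under 10% were found in 192 members, and 12 had a level of 80% or more. The median level over promoters was 19.5%, with quartiles of 2.98 and 63.4%.

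**Figure D2:**
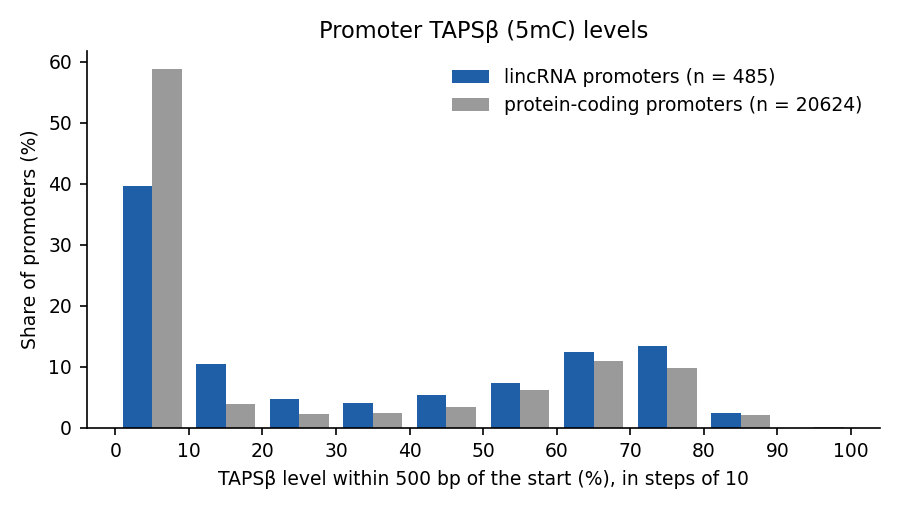
Share of promoters in percent (vertical axis) by TAPSβ (5mC) level within 500 bp of the start in steps of 10 percentage points (horizontal axis), for 485 lincRNA promoters (blue) and 20624 protein-coding promoters (grey). Both distributions have a large peak under 10% and a lower, broad one between 50 and 80%.

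The number of CpGs ordered these classes. Of promoters with 40 or more CpGs, 103 of 104 were under 20% TAPSβ, and of those with 20 to 39 CpGs 88 of 122 (72.1%) were, against 60.8% of coding promoters. With 10 to 19 CpGs, 41 of 168 (24.4%, interval 18.1 to 31.6%) were under 20%, against 345 of 3115 coding promoters (11.1%, 9.99 to 12.2%). With 0 to 9 CpGs, 11 of 91 (12.1%, 6.19 to 20.6%) were, against 83 of 3773 (2.20%, 1.76 to 2.72%). Over both classes 52 of 259 member promoters with under 20 CpGs were low in 5mC (20.1%, 15.4 to 25.5%), compared with 6.21% (5.65 to 6.81%) of all coding promoters and 5.55% (4.99 to 6.15%) of coding promoters more than 5 kb from another gene's coding start. Over all promoters with 20 or more CpGs the order was the other way, with a low share in members of 84.5% (79.1 to 89.0%) and in coding genes of 91.0% (90.5 to 91.5%). Of these, 104 of the 226 member promoters and 10797 of the 13736 coding ones had 40 or more CpGs.

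**Figure D3:**
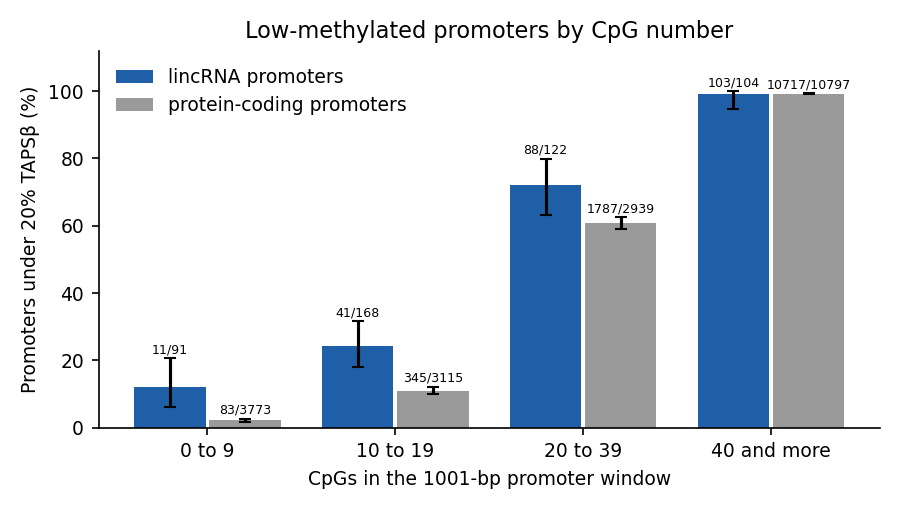
Share of promoters with a TAPSβ level under 20%, in percent, by the number of CpGs in the promoter window, for lincRNA (blue) and protein-coding (grey) promoters. Error bars are exact 95% intervals and the fractions give promoters under 20% over promoters with at least 20 reads. LincRNA promoters were more often low in the 3 classes under 40 CpGs, and both shares were about 99% above.

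Levels differed with the place of the start. Members outside coding gene spans had a pooled promoter TAPSβ level of 9.95% (9.84 to 10.1%), and members inside such spans 29.6% (29.3 to 29.9%). Low levels were found in 199 of 322 outside (61.8%, 56.3 to 67.1%) and in 44 of 163 inside (27.0%, 20.3 to 34.5%). The contrast was present among CpG-poor promoters, with 41 of 144 low outside (28.5%, 21.3 to 36.6%) and 11 of 115 inside (9.57%, 4.87 to 16.5%). Matched coding promoters had 14.2% for the members outside and 29.2% for those inside. With only coding genes more than 5 kb from another gene's coding start they had 14.7% and 29.9%. Members outside coding spans were thus lower than coding genes in both comparisons. Members inside were close to them, with a sign that turned with the coding genes used. Distance to the nearest coding start changed the pooled level less: it was 16.6% in 98 members at 5 to 10 kb, 13.9% in 240 at 10 to 50 kb and 13.4% in 164 beyond 50 kb.

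The CpG-rich end of the low class was nearly free of 5mC. The 5 low promoters with the most CpGs, from 107 to 140, were those of Gm17494, 9430091E24Rik, 9530036O11Rik, Ttc28 and Gm15609. Gm17494, whose sequence is shown above, had 4 modified of 3267 TAPSβ reads (0.122%), against 45.7% in its flank, and 11 of 1869 CAPS reads (0.589%), against 9.71% in its flank. In 9430091E24Rik the TAPSβ levels were 0.251% and 65.7% and the CAPS levels 0.437% and 1.95%. Ttc28, typed as lincRNA in the annotation used and as protein-coding in RefSeq, had 0.118% and 47.1% TAPSβ, and 0.687% and 7.73% CAPS. The promoter CAPS levels of Gm17494, 9430091E24Rik and Ttc28 lay under the study's CAPS false-positive rate, 0.0072 as a fraction. These levels were not read as 5hmC. Gm15609 was the least certain, since only 15 of its 214 cytosines had 10 TAPSβ reads, and its level was 3.97%. All 5 were called lower in CAPS than their own flank by the rule given further on.

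Among promoters with fewer than 20 CpGs, the 5 with the largest fall in TAPSβ from flank to promoter were Gm16233, Gm16608, A330048O09Rik, Gm16684 and C330002G04Rik, all outside coding gene spans. In C330002G04Rik, with 14 CpGs, 0 of 495 promoter reads were modified (upper bound 0.742%) and the flank had 60.7%. Gm16608, with 10 CpGs, had 4 of 447 modified promoter reads (0.895%) and 66.9% in the flank, and each of its 20 cytosines was under 20%. Gm16233 went from 74.5% in the flank to 1.10% at the promoter, and Gm16684 from 63.6% to 1.79%. A330048O09Rik kept some 5hmC, with CAPS levels of 4.61% (2.54 to 7.61%) at the promoter and 4.20% in the flank, at TAPSβ levels of 6.12% and 70.2%. Except in A330048O09Rik, the 5mC level of these CpG-poor starts was under the 2.45% of promoters with 40 or more CpGs.

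Methylated promoters with at least 20 CpGs were few: 10 of 122 with 20 to 39 CpGs were at 50% or more (coding: 588 of 2939) and 0 of 104 with more. The 5 highest with at least 100 reads in each library were 4930448N21Rik (75.1%), Gm13003 (72.2%), Dlx1as (70.8%), Gm2366 (68.6%) and Gm17653 (68.0%). In 4930448N21Rik the flank was as methylated as the promoter, 76.3%, but CAPS was 5.05% (3.23 to 7.49%) at the promoter and 0.767% (0.383 to 1.37%) in the flank. Dlx1as, a transcript antisense to the homeobox gene Dlx1, ran against the pooled profile, with 70.8% TAPSβ at its start and 14.1% in its flanks and 23.3% in its body. Its CAPS levels were 2.75% (1.43 to 4.76%), 2.98% and 3.01%.

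5hmC differed between the 5mC classes, which were set in another library of the same DNA. Low promoters had a pooled CAPS level of 1.77% (1.71 to 1.83%), middle promoters 6.21% (5.88 to 6.56%) and high promoters 4.07% (3.87 to 4.27%). Coding promoters of the same class matched on CpG number had 1.71%, 6.26% and 3.49%. The middle class held the most 5hmC in both gene types, and the high class of lincRNA genes exceeded its coding counterpart by 0.578 percentage points. Flanks of the 3 classes had nearly equal CAPS levels, 4.22%, 4.13% and 3.96%. The low promoters with 40 or more CpGs had 1.35% (1.28 to 1.42%). The study's CAPS false-positive rate was 0.0072 as a fraction, and the part of false conversion in that level was not tested.

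**Figure D4:**
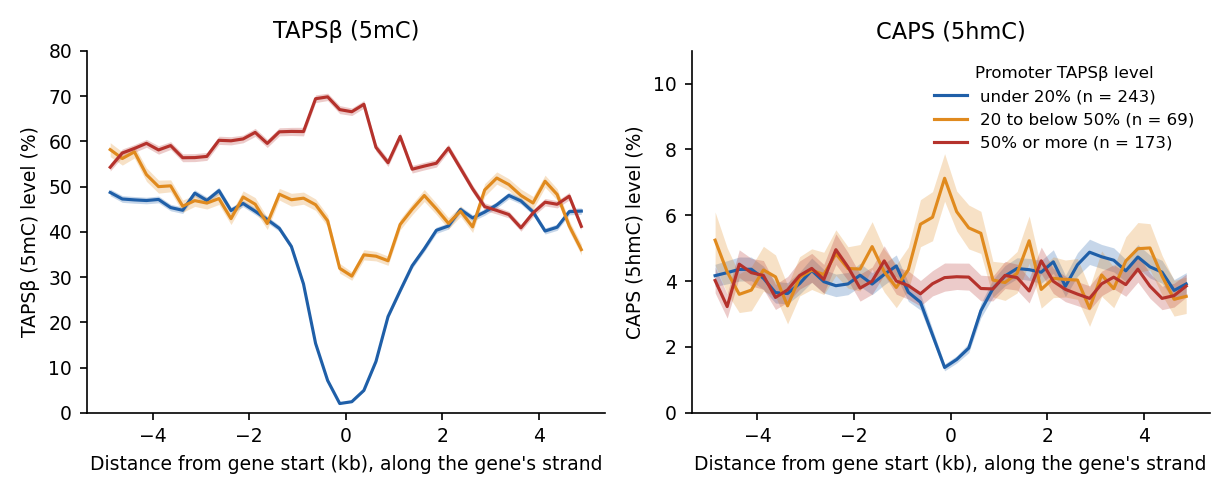
TAPSβ (5mC), left, and CAPS (5hmC), right, levels in percent in 250-bp steps along the gene's strand for lincRNA genes whose promoter TAPSβ level was under 20% (blue, n = 243), 20 to below 50% (orange, n = 69) or 50% or more (red, n = 173), with 95% intervals as bands. CAPS peaked at 7.13% just before the start in the middle class, dipped to 1.38% in the low class and stayed near 4% in the high class.

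Along the gene, CAPS in the middle class rose from 4.35% at 751 to 1000 bp before the start to 7.13% in the last 250 bp before it and was back at 4.03% 750 to 999 bp after it. TAPSβ of the same genes fell over that stretch from 47.4% to 31.9% and was 33.6% after it. In the low class both fell, CAPS from 3.66% to 1.38% and TAPSβ from 28.5% to 2.05%. The high class had TAPSβ between 66.5 and 69.8% from 500 bp before to 499 bp after the start and CAPS between 3.92 and 4.13%. TAPSβ levels of the classes near the start follow from the class rule, which used the TAPSβ level within 500 bp of the start. Within the low class, CAPS was 3.01% (2.73 to 3.31%) in the 52 promoters with under 20 CpGs and 1.66% (1.59 to 1.72%) in the 191 with 20 or more. The former also had a higher TAPSβ level, 6.55% against 3.50%, and a higher flank CAPS level, 4.90% against 4.05%.

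For each gene the promoter was then compared with its own flank, and called when the CAPS levels differed at least 2-fold and their intervals did not overlap. By this rule 35 of 485 promoters were above their flank (7.22%), against 4.57% of all coding promoters and 8.63% after weighting to the members' CpG numbers. The count was 11 with a 3-fold limit, at which no coding share was computed. Without starts inside coding gene spans it was 22, of 322 promoters with enough reads. Below their flank were 115 (23.7%), against 42.8% of all coding promoters and 19.8% after weighting. With promoters as units, the interval of the share above their flank was 5.08 to 9.89%. That of the share below their flank was 19.99 to 27.8%. The differences from the weighted coding shares were not tested. Of the 35 above, 19 were in the middle class, 13 in the high class and 3 in the low class. Of the 115 below, 108 were in the low class. The 35 had a pooled CAPS level of 7.55% at the promoter and 2.76% in the flank, with TAPSβ at 44.0% and 45.3%.

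**Figure D5:**
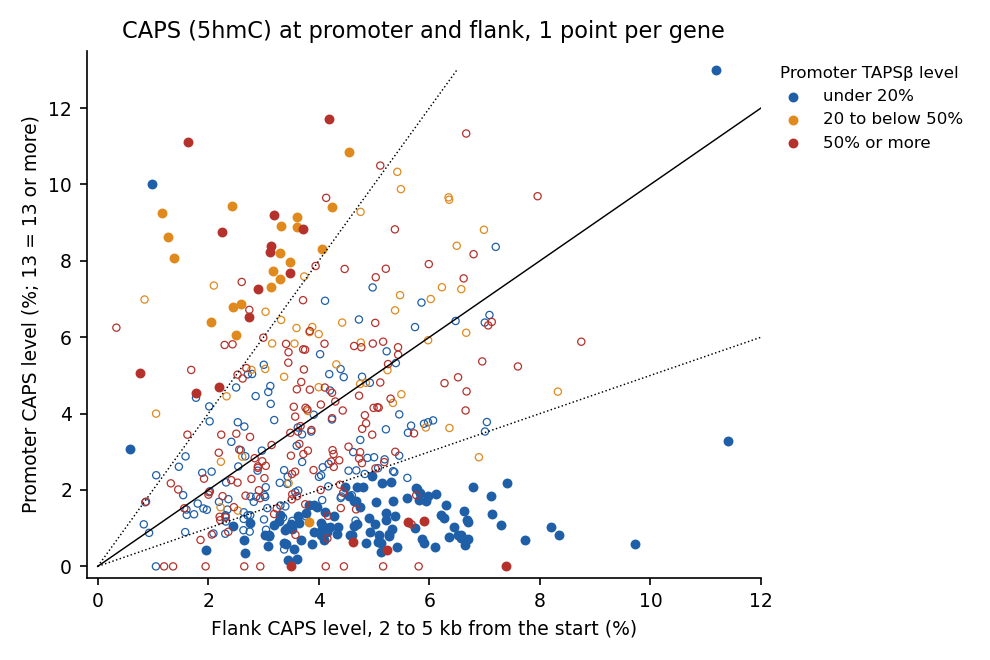
CAPS (5hmC) level in percent in the promoter (vertical axis) against the flank 2 to 5 kb away (horizontal axis), 1 point per lincRNA gene with at least 20 reads in both, coloured by promoter TAPSβ level. Filled points were called different from their flank, open points were not, the solid line marks equal levels and the dotted lines 2-fold differences. Orange and red points fill the upper left and blue points the lower right, and Gm17609, at 37.9%, is drawn at 13%.

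The highest CAPS levels of promoters with at least 100 reads in every library and no variant-like cytosine were those of Gm17464 at 11.7% (6.98 to 18.1%), Gm17354 at 11.3%, 4930444M15Rik at 10.9%, Gm17481 at 10.5% and 5830418P13Rik at 10.3% (6.80 to 14.9%). Their TAPSβ levels were alike, 54.6, 51.5, 46.6, 51.8 and 49.7%, all near the border of the middle and high classes. Only Gm17464, at 4.19% in its flank, and 4930444M15Rik, at 4.55%, passed the rule for a level above the flank. 4930444M15Rik stood in a low-methylated surrounding, with 16.8% TAPSβ in the flank and 17.3% in the body, and its cytosine 49 bp after the start had 6 of 11 modified CAPS reads (Benjamini-Hochberg adjusted p = 1.473e-07 in the exact binomial test described next). The interval of each of these 5 promoters overlapped those of the other 4, so no order among them can be read. One promoter outside the naming rule, Gm17609, chosen after its values were seen, had 11 of 29 modified CAPS reads (37.9%, 20.7 to 57.7%) but only 22 TAPSβ and 11 PS reads.

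At single cytosines, 5hmC was called where the modified CAPS reads exceeded a false-positive rate of 0.0072 in a one-sided exact binomial test, with adjustment over all 36060655 cytosines with at least 5 reads. In all, 1.64% of the tested cytosines were called. In member promoters 274 of 21992 were called (1.25%, 1.10 to 1.40%), against 1.22% in coding promoters matched on CpG number. Adjustment over only the cytosines with a modified read raised the members' share to 4.08% (3.83 to 4.35%), the matched coding share to 3.93% and the share of all cytosines tested to 5.51%. This alternative selects cytosines by the tested count itself, so its adjusted p limit is looser than stated. With adjustment over all tested cytosines, the members' share was 0.633% in the low class, 4.33% (3.48 to 5.30%) in the middle class and 2.33% (1.86 to 2.89%) in the high class. Coding promoters of the same classes, not matched on CpG number, had 0.267%, 4.45% and 1.72%, so the middle class was highest in both gene types. In flanks the called share was 2.68% (2.55 to 2.81%) for members and 2.01% for all coding genes, unmatched, and in bodies 2.14% and 1.94%. Of the promoters, 16 had no cytosine to test, 316 held tested cytosines and no call, 101 held 1 call, 45 held 2, 16 held 3, 5 held 4 and 3 held 5 or more. At a median depth of 9 CAPS reads a cytosine needs a high level to be called, so a promoter without a call may still hold 5hmC.

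Away from the promoter, lincRNA genes had a higher CAPS level than coding genes matched on the CpG number of the promoter window. Neither flanks nor bodies were matched on their own CpG number, gene length or TAPSβ level. The part of these in the differences was not tested. The flank CAPS level of 4.103% stood against 3.45% for these coding genes, and it was higher on all 19 autosomes (differences of 0.230 to 1.20 percentage points). The ratio was 1.19. It ranged from 1.18 to 1.21 over the interval of the members' level, with the coding level held fixed and without its error. Compared only with coding genes more than 5 kb from another gene's coding start, the matched level was 3.51% and the difference again positive on all 19. Upstream flanks alone gave 4.08% and 3.42%. Members outside coding gene spans had 4.03% against 3.47%, higher on 16 of 19 autosomes, and members inside had 4.24% against 3.40%, higher on 19. TAPSβ in the flanks was 48.0% against 50.5%, with 8 autosomes higher and 11 lower, and this difference depended on the genes and the side compared. Against the isolated coding genes it was 48.0% and 54.2%, higher on 2 autosomes, while upstream flanks had 51.2% in members and in all coding genes. Members outside coding gene spans had 44.7% against 50.2%, and members inside them 54.2% against 51.2%.

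In gene bodies TAPSβ was 53.1% in members and 58.7% in coding genes matched on the promoter window, lower on all 19 autosomes. CAPS was 3.67% and 3.299%, higher on 16. Annotated exons of the members, outside the promoter window, were less methylated than introns, 40.2% (40.1 to 40.4%) against 54.8% (54.7 to 54.8%). Their CAPS level was slightly higher, 3.89% (3.82 to 3.96%) against 3.64% (3.62 to 3.66%). The exon levels of TAPSβ were 41.1, 45.4 and 37.3% in the low, middle and high promoter classes. Introns of the same classes were higher, at 55.3, 59.1 and 52.5%. Exon and intron reads were pooled over members, not paired within a gene and not matched on distance from the start. The part of either in these contrasts was not tested.

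Of a list of 52 symbols of well-known long noncoding RNAs, 13 were those of members, of which 7 were in the low, 2 in the middle and 4 in the high class. Among the small nucleolar RNA host genes on the list, Snhg5, Snhg7 and Snhg12 were members. Their promoter TAPSβ levels were 0.177% (5 of 2820 reads), 1.62% (31 of 1915) and 3.62% (64 of 1768), against 52.8, 33.1 and 37.0% in their flanks. Their CAPS levels were 0.817, 1.37 and 1.91%, against 8.34, 7.13 and 5.82% in the flanks, so that all 3 were called below. Their short bodies were low as well, at 1.07% in Snhg5, 4.89% in Snhg7 and 7.45% (5.94 to 9.19%) in Snhg12. Snhg4, a member that was not on the list and was named after its values were seen, had 3.77% at the promoter and 31.6% in the flank, with no call in CAPS at 1.64% and 1.81%.

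1700020I14Rik (chr2:119420033-119433238, plus strand), named Oip5os1 in RefSeq and also known as Cyrano, a conserved RNA that directs decay of a microRNA, had 6 of 2153 modified TAPSβ reads (0.279%) at the promoter and 64.3% in the flank, and its CAPS level rose from 0.647% at the promoter to 6.76% in the body. Pvt1, which lies beside Myc, had 0.255% TAPSβ at the promoter, 41.6% in the flank and 59.8% over the body of a gene of 340110 bp. Dleu2, host of a microRNA cluster, had 0.378% with 693 of 3850 modified reads in the flank, and Miat had 1.31% with 61.2% in the flank. CAPS was called below the flank in 1700020I14Rik, Pvt1 and Dleu2. Their promoter CAPS levels, 0.647, 0.548 and 0.531%, lay under the CAPS false-positive rate and were not read as 5hmC. Miat was not called, at 1.23% and 3.01%.

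Sox2ot, within which the pluripotency gene Sox2 lies, and Rmst, which is switched on in neural differentiation, had methylated, CpG-poor starts and CAPS levels called above their flanks. Sox2ot (chr3:34003360-34581541, plus strand), with 9 CpGs, had 187 of 312 modified TAPSβ reads (59.9%), 17 of 185 CAPS reads (9.19%, 5.44 to 14.3%) and 0 of 203 PS reads, and its flank had 3.19% CAPS (2.24 to 4.38%). Rmst (chr10:91544491-91627923, minus strand), also with 9 CpGs, had 123 of 179 TAPSβ reads (68.7%), 12 of 137 CAPS reads (8.76%, 4.61 to 14.8%) and 0 of 131 PS reads, with 2.25% CAPS (1.59 to 3.09%) in the flank. Each held 2 called cytosines close to the start, 36 and 46 bp after it in Sox2ot and 19 and 72 bp after it in Rmst, with 3 or 4 modified CAPS reads of 11 to 14. The start used is that of the longest annotated extent, so a shorter transcript of Sox2ot may begin elsewhere.

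Levels of the imprinted noncoding RNAs were middle or high. Meg3 (chr12:110779211-110809936, plus strand), expressed from the maternal chromosome, had 30.1% TAPSβ (27.2 to 33.2%) at its promoter against 57.7% in the flank, and CAPS of 1.17% (0.430 to 2.53%) against 3.83%, which made it the only promoter of the middle class called below its flank. Airn (chr17:12934177-13052988, plus strand), expressed from the paternal chromosome and antisense to Igf2r, inside whose span it starts, had 28.8% (25.1 to 32.7%) against 77.3%, with CAPS at 1.55% (0.670 to 3.03%) and 2.22%. Both CAPS intervals lay under the 6.21% of the middle class. At single cytosines with at least 10 reads, 47 of 63 in Meg3 and 15 of 23 in Airn lay between 20 and 80%, and none was at 80% or more. Other promoters of middle level looked alike in this count, with 13 of 16 such cytosines in 4930444M15Rik and 32 of 34 in 5830418P13Rik. Mirg, a further transcript of the Meg3 locus, was methylated throughout, with 79.1% at the promoter, 75.4% in the flank and 73.0% in the body.

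PS gave little signal at single promoters. No modified PS read was found in 237 members, 1 was found in 122 and 2 or more in 143. A cytosine was called variant-like when its PS level was 20% or more at 5 or more reads, so that at 5 reads 1 modified read was enough. The rule was used because a cytosine that E14 DNA carries as T is read as modified by all 3 methods. The same holds for 5fC and 5caC, so the rule does not single out variants. Variant-like cytosines numbered 27, in 23 promoters. They were 0.116% (0.0765 to 0.169%) of the members' 23263 promoter cytosines with at least 5 PS reads, against 0.114% in matched coding promoters and 0.142% in all cytosines with that depth. Leaving them out must lower PS levels, because they were picked by their PS level in this library. The promoter PS level was then 0.235%, the flank level 0.190% and the body level 0.194%, with promoters still the highest of the 3 in pooled reads. The means over single genes had the same order, at 0.288% in promoters, 0.266% in bodies and 0.249% in flanks, and the medians, with many promoters at 0, the other, at 0.147, 0.181 and 0.173%. Given the false conversion rate of PS, the differences between these levels were not read as differences in 5fC or 5caC.

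Such cytosines carried much of the promoter PS signal of 2 named members. Gm17605 had 28 of 413 modified PS reads (6.78%) at its promoter with 3 variant-like cytosines, and its CAPS level of 11.1% rested largely on the same positions: the 3 cytosines 91, 138 and 435 bp before the start held 11 of 19, 11 of 21 and 10 of 20 modified CAPS reads and 8 of 17, 13 of 19 and 7 of 15 modified PS reads. Gm10492 had 27 of 1005 (2.69%) at its promoter, 8.47% in its flank and 15.5% in its body in PS, next to CAPS levels of 3.29, 11.4 and 19.6%. PS, which is not meant to read 5hmC, was about as high as CAPS at these cytosines, so the CAPS levels of these genes cannot be read as 5hmC alone. Both entered the counts above, Gm17605 among the promoters above their flank and with 5 called cytosines, and Gm10492 among those below. Without variant-like cytosines 36 promoters were above and 113 below, and 1.21% of promoter cytosines were called. Among promoters with at least 100 reads in every library and no variant-like cytosine the highest PS levels were those of Gm17735 at 1.74% (2 of 115 reads), Gm17681 at 1.24% (7 of 564) and Gm17335 at 1.15% (3 of 261), with intervals from 0.211, 0.500 and 0.238% upward.

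Gm17735 was 1 of the 3 low promoters called above their flank in CAPS, beside Gm17609 and A530083I20Rik (3.07% against 0.580%, named after its values were seen). It had 4.62% TAPSβ (12 of 260 reads) and 15 modified of 150 CAPS reads (interval 5.71 to 15.96%), against 12.99% and 0.977% in its flank. Its cytosines 98 and 88 bp before the start were called, with 5 of 31 and 6 of 29 modified CAPS reads. They also had 53 and 52 TAPSβ reads, where the library median was 13, and the part of reads from other copies of the sequence in this result was not tested. With the same read minimum, the largest rises in CAPS from body to promoter were those of Gm17464, Gm17605 and Gm17735, and that of Gm17464 rested on 1 modified of 62 body reads, with overlapping intervals. The promoter values of Gm17605 and Gm10492 include variant-like cytosines, and such cytosines were not counted in the bodies of single genes. The largest falls were those of 2610020F03Rik (from 15 of 79 reads to 2.57%), Gm10492 and Gpr137b-ps (from 9.32% to 0.623%). The body of Gpr137b-ps had 118 CAPS reads.

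Base composition and short motifs differed between the classes. In the 300 bases around the start, median G or C content was 54.7% in the low class, 48.7% in the middle and 44.7% in the high class. The letters GGGCGG, part of an Sp1 box, were found on either strand in 101 of 243 low promoters (41.6%) and in 11 of 173 high promoters (6.36%), against 65.8% and 5.90% of the coding promoters of the same classes and 43.7% of all coding promoters. TATAAA, the core of a TATA box, was found in 15 low (6.17%) and 40 high promoters (23.1%), against 6.54% and 26.7% of coding promoters of these classes and 13.52% of all. The octamer ATGCAAAT, which POU factors such as Oct4 bind, was found in 9 of the 502 members (1.79%) and in 1.73% of coding promoters. By class it was found in 8 low (3.29%) and 0 high member promoters, without matching on CpG number or base composition. Among coding promoters it was less frequent in the low class (1.42%) than in the high class (2.33%). These are matches of letters, not sites of binding.

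Symbols of 248 members were found among the RefSeq genes of a later mouse assembly, GRCm38.p6, 215 of them as lncRNA and 16 as protein-coding genes. Of the lncRNA group 134 were low, 29 middle and 50 high in TAPSβ, and of the 254 without a match 89, 37 and 116. Among promoters with under 20 CpGs, 29 of 99 matched symbols of any RefSeq type (29.3%, 20.6 to 39.3%) and 23 of 160 unmatched ones (14.4%, 9.34 to 20.8%) were low, with intervals that overlap, and the difference was not tested. With 20 and more CpGs the shares were 86.8% (80.2 to 91.9%) and 80.5% (70.3 to 88.4%).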

How the data were processed

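Genomic DNA of E14 mESCs was sequenced by TAPSβ, CAPS and PS, with 1 library per method. The authors trimmed reads with Trim Galore (version 0.3.1 in the submitters' processing notes), aligned them to mm9 with BWA (0.7.12), removed duplicates with Picard (2.3.0) and called modified bases with asTair. They deposited, for each CpG cytosine, the count of modified and of unmodified reads and the fraction of modified reads, which served here only to check the counts. Unless stated otherwise, neither sequence variants nor regions of high coverage were left out here. Reads of 1 fragment at several cytosines are not independent, so intervals are too narrow for counting error alone.

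The members, gene lists and alternatives were chosen with earlier results of these data known. Counts within 500 bp of the start, from there to the gene end, and 2 to 5 kb from the start on both sides were pooled, in all cytosines with reads, with Python 3.11.15, numpy 2.4.6, scipy 1.17.1 and pandas 2.3.3, and plotted with matplotlib 3.10.9. Matched coding levels were averages over members with each member's reads as weight. Differences per autosome were given as a description. With 1 library per method no test between genes was made. The only test was the exact binomial test of single CAPS cytosines, whose false-positive rate of 0.0072 was taken from the study's methods, with Benjamini-Hochberg adjustment and a limit of 0.05. The matching and the site test were checked on simulated counts.

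Named genes were members on a list of known long noncoding RNAs and, among the 444 members with at least 100 reads in each library, the 5 with the most CpGs in the low class, the 5 with the highest TAPSβ level at 20 or more CpGs, the 5 with the highest CAPS level and the 3 with the highest PS level without a variant-like cytosine, the 5 with the largest TAPSβ fall from flank to promoter at under 20 CpGs, and the 3 with the largest rise and fall in CAPS from body to promoter. Sequences were read from the NCBIM37 genome. Alternatives changed the read minimum, windows, distance limit, transcripts, gene sets, matching and call rules.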

Additional observations from a re-analysis of the deposited data

How the results depend on the processing

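No paired analysis was possible because each method had 1 library and no replicates, so no value could be recomputed without a replicate. Of the recomputed values, 118 stayed within the interval of the reported value or, for counts, within 1.5 times it. Of the others, 62 moved and 2 turned. The PS promoter difference, -0.000831 percentage points, was near 0 and changed sign under several alternatives, to at most 0.0234, and apart from it the values that moved kept their direction. The turned ones were the CAPS promoter difference from matched coding genes, -0.0414 percentage points without starts inside coding gene spans, and the TAPSβ promoter difference, 8.50 without matching on CpG number, where the CAPS difference was 1.17.
Without starts inside coding gene spans the promoter levels were 9.95% TAPSβ, 2.18% CAPS and 0.299% PS, the body levels 54.2, 3.69 and 0.258%, and the flank levels 44.7, 4.03 and 0.244%. The differences from matched coding genes were then -4.26 (TAPSβ promoter), 0.0234 (PS promoter) and 0.556 (CAPS flank). Of 322 promoters with enough reads 22 were above their flank, and 1.03% of promoter cytosines were called.
With at least 10 reads per cytosine TAPSβ was 13.4% in promoters (difference -2.89), 52.2% in bodies and 47.0% in flanks, CAPS 3.51% in bodies and 3.98% in flanks, and PS 0.245% in bodies. Without variant-like cytosines PS was 0.235, 0.194 and 0.190% in promoters, bodies and flanks and CAPS 3.63% in bodies. Without cytosines of more than 4 times the median coverage PS in bodies was 0.221%.
As means of single genes TAPSβ was 32.0, 49.5 and 54.1% in promoters, bodies and flanks, CAPS 3.48 and 4.04% in promoters and bodies, and PS 0.266 and 0.249% in bodies and flanks. A window within 250 bp gave 11.3% TAPSβ and 2.32% CAPS, and within 1000 bp 20.2 and 2.99%, with differences of -2.60 and 0.229.
With a limit of 10 kb to coding transcript starts TAPSβ was 13.7% in promoters (difference -3.75), 53.8% in bodies and 48.1% in flanks, CAPS in flanks 4.16% and PS in bodies 0.242%. With every transcript of coding genes as a start, promoters had 13.52% TAPSβ (difference -3.48) and 2.48% CAPS and bodies 53.4% TAPSβ. With 1 of each set of overlapping windows TAPSβ was 14.4% in promoters and 52.9% in bodies.
Coding genes more than 5 kb from other coding starts gave differences of -3.78 (TAPSβ promoter) and 0.592 (CAPS flank), and matching in 5 classes -2.56 (TAPSβ promoter) and 0.161 (CAPS promoter). The upstream flank had 51.2% TAPSβ, and the whole gene as body 51.2% TAPSβ and 3.62% CAPS. At 3-fold, 11 promoters were above their flank, and no coding share was computed. The share of called cytosines was 1.47% at 10 or more reads and 4.08% with adjustment over cytosines with a modified read. The depth of 9 CAPS and PS reads per cytosine limits single cytosines, and the libraries cannot show variation between cultures.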
